A study of Mus musculus with 16 samples.

Results

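The genes examined here were 31 mouse genes of glycolysis and pyruvate handling, out of 34042 rows of the deposited count table. They were taken by gene symbol: glucose and lactate transporters, the enzymes from hexokinase to pyruvate kinase, the PFKFB and PDK isoforms, lactate dehydrogenases, pyruvate dehydrogenase subunits and Hif1a. The selection rule uses no measured value, but the genes, and the lists used further below, were chosen with earlier results of these data known. All 31 symbols were found, and all 31 passed the low-count filter, which left 18555 tested genes.

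Bulk RNA sequencing covered 16 libraries of cultured mouse pluripotent cells, each a passage of a named line. There were 6 libraries of formative stem cells (FS), grown in A3XR medium, 3 of line 5ar1 (passages 10, 12 and 14, replicates 1 to 3) and 3 of line 5ar3 (passages 12, 4 and 5, replicates 4 to 6). Epiblast stem cells gave 3 libraries of line AFX6 in AFX medium (EpiSC_AFX, passages 12, 5 and 8) and 3 of line AF32 in AF medium (EpiSC_AF, passages 13, 14 and 15). The 4 embryonic stem cell (ES) libraries were passages 12, 13, 15 and 20 of line E14IV-C, grown in 2iL medium. A3XR stands for activin A with the tankyrase inhibitor XAV939 and a retinoic acid receptor inhibitor, AF for activin A with FGF2, AFX for AF with XAV939, and 2iL for inhibitors of MEK and GSK3 with LIF. No group was a genetic perturbation. FS was the only group with 2 lines, so for every other group line and medium cannot be told apart, and p-values measure the spread between passages, which may be technical. In such bulk libraries, fewer cells that express a gene and less RNA per cell cannot be told apart.

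Glycolysis converts glucose to pyruvate in the cytosol. Pyruvate is then either reduced to lactate by lactate dehydrogenase and exported, or taken into mitochondria and oxidised by the pyruvate dehydrogenase complex, which the PDK kinases switch off. Most steps are carried out by enzymes encoded by several genes with different kinetics or tissue distribution, so a cell can change the isoform as well as the amount. Naive mouse ES cells are known to combine glycolysis with mitochondrial respiration, whereas primed EpiSCs depend mostly on glycolysis. Several of the genes, among them Slc2a1, Ldha, Pgk1, Pdk1 and Slc16a3, are textbook targets of the hypoxia-inducible factor HIF1A, which the Hif1a gene encodes.

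Library totals ranged from 22069338 to 33290250 counts, and levels below are read counts per 1e+06 counts (CPM) scaled by TMM. The mitochondrial rRNA gene mt-Rnr2 took 38.1% of the counts in ES replicate 1 and 9.96% to 25.0% in the other 15 libraries. Relative to all counts outside mitochondrial genes, the 31 genes took 0.846% to 0.955% in ES, 1.49% to 2.22% in FS, 1.63% to 2.04% in EpiSC_AFX and 1.59% to 1.92% in EpiSC_AF. Naive and epiblast markers fitted the labels: all 8 naive pluripotency markers were lower in FS than in ES and all 4 post-implantation epiblast markers higher. Of 2 core pluripotency markers 1 was lower in FS than in ES (log2 fold change -1.44) and 1 was not called. Markers of other cell types also differed. The summed level of 8 fibroblast or feeder markers was 0.587 to 1.11 CPM in ES, where 2 of them were at 0 in all libraries, 17.4 to 34.7 CPM in FS, 12.8 to 20.9 CPM in EpiSC_AFX and 33.4 to 80.2 CPM in EpiSC_AF. For 8 primitive streak and endoderm markers the sums were 8.40 to 16.2 CPM in ES, 17.1 to 53.9 in FS, 15.5 to 165 in EpiSC_AFX and 346 to 843 in EpiSC_AF. These 8 did not move together in FS against ES: 2 were called higher, 1 lower and 5 were not called. Against ES, 6 of the 8 were called higher in EpiSC_AFX and all 8 in EpiSC_AF. Whether such cells were present, and their part in the results, was not tested.

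The sequences below are the 250 bases upstream of the RefSeq start of 4 genes on which the results turn, written from 5′ to 3′ on the gene's strand (RefSeq, build GRCm38.p6). Capitals mark the hypoxia response core, searched as ACGTG and GCGTG on both strands, so that CACGT and CACGC on the printed strand also count. The first 3 are of genes that were higher in FS than in ES, and Ldhb was lower. The window of Slc16a3 is chr11:120948817-120949066 on the plus strand, that of Slc2a1 chr4:119108495-119108744 on the plus strand, that of Ldha chr7:46845554-46845803 on the plus strand at the first of its 2 starts, and that of Ldhb chr6:142507958-142508207 on the minus strand.
Slc16a3: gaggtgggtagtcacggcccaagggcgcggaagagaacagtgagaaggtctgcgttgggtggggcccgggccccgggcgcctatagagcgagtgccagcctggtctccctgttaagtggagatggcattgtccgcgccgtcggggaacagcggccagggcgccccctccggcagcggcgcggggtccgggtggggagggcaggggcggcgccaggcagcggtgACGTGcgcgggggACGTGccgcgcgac
Slc2a1: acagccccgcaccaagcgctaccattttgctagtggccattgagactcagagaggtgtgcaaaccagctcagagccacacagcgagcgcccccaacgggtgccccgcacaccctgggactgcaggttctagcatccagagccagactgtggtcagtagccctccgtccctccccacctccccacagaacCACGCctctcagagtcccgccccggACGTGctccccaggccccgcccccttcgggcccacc
Ldha: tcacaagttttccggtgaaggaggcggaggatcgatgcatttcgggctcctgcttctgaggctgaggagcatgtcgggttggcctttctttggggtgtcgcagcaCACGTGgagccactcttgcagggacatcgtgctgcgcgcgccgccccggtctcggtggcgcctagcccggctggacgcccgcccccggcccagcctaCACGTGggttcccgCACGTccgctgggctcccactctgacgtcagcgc
Ldhb: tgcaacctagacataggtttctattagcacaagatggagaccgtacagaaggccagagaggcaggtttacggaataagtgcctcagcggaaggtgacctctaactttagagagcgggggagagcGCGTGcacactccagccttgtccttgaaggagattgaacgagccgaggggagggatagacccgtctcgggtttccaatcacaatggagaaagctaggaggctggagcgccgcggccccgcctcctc
Slc16a3 had 2 copies of the core close to its start and Slc2a1 also had 2. Ldha had 5 matches in the printed bases, of which 4 come from 2 copies of the palindrome CACGTG, the E-box that Myc-type factors bind and that holds the core on both strands. Ldhb had 1 match. Promoters were in the table for 30 of the 31 genes, all but Slc2a3. Over windows that also took 50 bases downstream of each start, 27 of the 30 genes had the core, against 12628 of 27025 genes in the table (46.7%). Per promoter the shares were 37 of 46 (80.4%) and 14380 of 32851 (43.8%), without matching for base composition. The core was found in 17 of the 19 genes that were higher in FS than in ES (89.5%) and in 7 of the 7 that were lower, so its presence did not separate the directions. A match describes the letters in this window and is no measure of binding.

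FS and ES cells were compared first. In FS the widely expressed glucose transporter Slc2a1, the liver-type phosphofructokinase Pfkl, Pfkfb3, Ldha and the lactate exporter Slc16a3 were 5.80-fold to 33.9-fold higher than in ES, while Hk1, Pfkfb2 and Ldhb were 4.61-fold to 8.84-fold lower. Of the 31 genes, 26 passed edgeR's quasi-likelihood test at a Benjamini-Hochberg adjusted p under 0.05, 19 higher and 7 lower in FS. The same test called 62.8% of all tested genes, so passing it is by itself no feature of these genes. Their direction was less even: 61.3% of them were higher and 22.6% lower, against 32.9% and 29.9% of all genes, and their median log2 fold change was 1.04 against 0.04. A log2 fold change of at least 1 in either direction was found for 21 of the 31, against 41.2% of all genes. When libraries were scaled by total counts alone, the median of all genes moved to 0.40, and 28 of the 31 were called, 22 higher and 6 lower. The test then called 60.7% of all genes, and the share of all calls that were higher went from 52.4% to 70.5%.

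**Figure D1:**
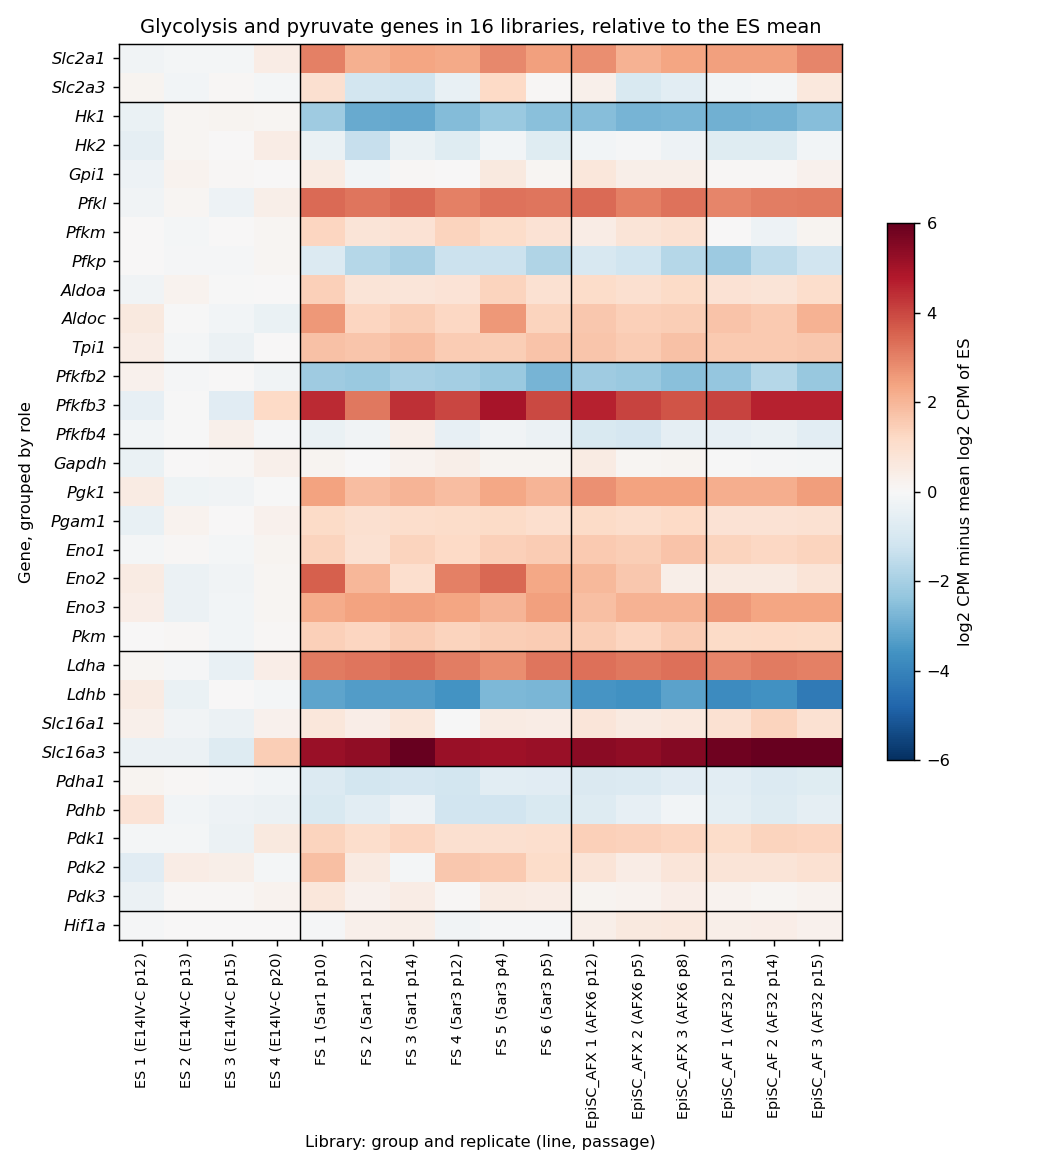
Each row is one of the 31 genes, grouped by role, and each column one of the 16 libraries; the colour gives log2 CPM minus the mean log2 CPM of the gene in the 4 ES libraries. Slc16a3, Pfkfb3, Pfkl and Ldha are above the ES mean in every FS and EpiSC column, and Ldhb, Hk1, Pfkp and Pfkfb2 are below it.

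Glucose enters these cells through facilitative transporters, of which 2 were in the set. Slc2a1, which encodes GLUT1, was at 130.5, 141, 139.5 and 207 CPM in ES replicates 1 to 4 and at 662 to 1246 CPM in FS, with a median of 816. Every FS library was above every ES library, and the log2 fold change was 2.54 (SE 0.22, edgeR adjusted p 2.34e-08). Slc2a3, which encodes the high-affinity transporter GLUT3, was at 1928, 1547, 1783 and 1592 CPM in ES and at 735 to 3851 CPM in FS, with a median of 1514. The FS libraries lay on both sides of the ES libraries, and no difference was detected (log2 fold change 0.19, SE 0.41, edgeR adjusted p 0.708). FS replicates 1 and 5 were the highest in FS for both transporters.

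The upper part of the pathway traps glucose and splits it into trioses. Of its 9 genes, 5 were higher in FS, 3 lower and 1 was not called, where 32.9% of all tested genes were higher and 29.9% lower. Hexokinase 1 (Hk1), the widely expressed enzyme of the first step, was at 129, 183, 190.4 and 180.4 CPM in ES and at 20.3 to 39.1 CPM in FS, with a median of 28.6. All FS libraries were below all ES libraries, and the log2 fold change was -2.56 (SE 0.18, edgeR adjusted p 1.49e-09). Hexokinase 2 (Hk2), the inducible isoform, was at 263, 419.5, 386 and 521 CPM in ES and at 148 to 346 CPM in FS, with a median of 264. Its libraries overlapped, and its log2 fold change of -0.62 (standard error 0.21, edgeR adjusted p 0.0152) lost its call with total counts as the only scaling (-0.30, edgeR adjusted p 0.323), without ES replicate 4 (-0.47, adjusted p 0.0743) and with passage as a covariate (adjusted p 0.0796). Gpi1, glucose-6-phosphate isomerase, ran from 226 to 323 CPM in ES and from 247 to 427 CPM in FS and was not called (log2 fold change 0.21, edgeR adjusted p 0.25).

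Phosphofructokinase 1 makes the committed step of glycolysis and is built from liver (Pfkl), muscle (Pfkm) and platelet (Pfkp) subunits. Pfkl was at 59.6, 74.4, 55.5 and 87.8 CPM in ES and at 552 to 728 CPM in FS, with a median of 633. These ranges were far apart, and Pfkl was 9.33-fold higher in FS (log2 fold change 3.22, SE 0.15, edgeR adjusted p 1.23e-11), the smallest adjusted p of the 31 genes. Pfkm was at 50.6, 46.6, 50.4 and 54.2 CPM in ES and at 84.8 to 126 CPM in FS (median 101), without overlap and with a log2 fold change of 1.05 (standard error 0.14, edgeR adjusted p 6.14e-06). Pfkp went the other way, from 264, 253, 254 and 285 CPM in ES to between 68.1 and 148 CPM in FS (median 95.1). Each FS library was below each ES library, with a log2 fold change of -1.42 (standard error 0.22, edgeR adjusted p 1.95e-05).

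Aldolase and triosephosphate isomerase follow. Aldoa, the main aldolase of dividing cells, was at 894, 1173, 1004 and 1040.0 CPM in ES and at 1675 to 2741 CPM in FS (median 1883). The groups did not overlap, and Aldoa was 2.03-fold higher in FS (edgeR adjusted p 1.58e-05). Aldoc, the brain-type aldolase, was at 34.2, 22.7, 20.8 and 17.2 CPM in ES and at 54.3 to 140.2 CPM in FS (median 61.0), 3.61-fold higher without overlap (edgeR adjusted p 4.63e-05). Its high values came from FS replicates 1 and 5, at 139.8 and 140.2 CPM, while the other 4 FS libraries were at 54.3 to 63.7 CPM. Tpi1, triosephosphate isomerase, was at 386, 261, 228 and 296 CPM in ES and at 811 to 1025 CPM in FS (median 936), which was 3.13-fold higher without overlap (edgeR adjusted p 1.34e-08).

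PFKFB enzymes make and degrade fructose-2,6-bisphosphate, the strongest activator of phosphofructokinase 1, and Pfkfb3 is the isoform with the highest kinase activity relative to its phosphatase activity. Pfkfb3 was at 2.49, 3.34, 2.14 and 7.91 CPM in ES and at 30.5 to 107 CPM in FS, with a median of 64.3. No libraries overlapped, and Pfkfb3 was 16.4-fold higher in FS (log2 fold change 4.04, SE 0.41, edgeR adjusted p 1.72e-07). ES replicate 4 was the highest ES library, and without it the fold was 24.6. Pfkfb2, the heart-type isoform, was at 22.2, 18.0, 19.2 and 16.1 CPM in ES and at 2.69 to 4.94 CPM in FS (median 4.14). All FS values were below all ES values, with a log2 fold change of -2.20 (standard error 0.19, edgeR adjusted p 1.7e-08). Pfkfb4 was at 4.49 to 6.15 CPM in ES and 3.58 to 6.13 CPM in FS, and was not called (log2 fold change -0.21, edgeR adjusted p 0.359).

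The lower part of the pathway, from Gapdh to Pkm, yields ATP and pyruvate. Of its 7 genes, 6 were higher in FS and 1, Gapdh, was not called, where 32.9% of all tested genes were higher. Pgk1, phosphoglycerate kinase, was at 77.5, 46.6, 48.1 and 53.7 CPM in ES and at 197 to 296 CPM in FS (median 230.0). Its FS libraries were all above the ES libraries, at 4.22-fold (edgeR adjusted p 1.13e-08). Pgam1, phosphoglycerate mutase, was at 186, 289, 255 and 299.8 CPM in ES and at 493.3 to 557 CPM in FS (median 533), again without overlap and 2.05-fold higher (edgeR adjusted p 8.76e-07). Pkm, pyruvate kinase, was at 928, 952, 796 and 939.8 CPM in ES and at 2214 to 2600.0 CPM in FS (median 2479). That was 2.71-fold higher with a narrow spread in both groups (SE 0.10 on the log2 scale, edgeR adjusted p 1.53e-09). Counts per gene do not separate the Pkm1 and Pkm2 splice forms.

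Enolase is encoded by 3 genes of the set, and all 3 were higher in FS. Eno1, the ubiquitous form, was at 181, 210.0, 183 and 218 CPM in ES and at 366 to 566 CPM in FS (median 499), 2.45-fold higher without overlap (edgeR adjusted p 8.29e-08). Eno3, the muscle form, was at 7.12, 4.25, 4.74 and 5.74 CPM in ES and at 21.99 to 29.8 CPM in FS (median 28.1), with no overlap and a log2 fold change of 2.31 (standard error 0.16, edgeR adjusted p 1.49e-09). Eno2, the neuronal form, was at 3.87, 2.12, 2.37 and 2.93 CPM in ES and at 5.45 to 32.8 CPM in FS (median 18.0). Its FS values were above ES but spread 6.02-fold among themselves, and the log2 fold change was 2.78 (SE 0.46, edgeR adjusted p 4.59e-05). The summed level of 4 neuroectoderm markers was 2.36 to 41.7 CPM in FS and 0.813 to 2.64 CPM in ES, where 1 of the 4 was at 0 in all libraries, and its part in the Eno2 value was not tested.

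Reads of several of these enzymes can be shared with processed pseudogenes, which the genome holds in many copies. Of the 50-base stretches of the annotated exons, 53.9% in Pgk1, 36.2% in Pgam1, 25.99% in Eno1, 25.8% in Pkm and 24.7% in Gapdh also occur in another annotated gene. For Gapdh, glyceraldehyde-3-phosphate dehydrogenase, the row itself was at 105 to 170.0 CPM in ES and 139 to 178 CPM in FS, but 80.0% to 89.1% of the counts summed over Gapdh and 107 such rows lay in the other rows. For Pgk1 that share was 78.0% to 82.3%, and for Eno1, whose close copy is Eno1b, it was 75.1% to 77.2%. The levels of these genes in CPM are therefore uncertain. Summing each gene with its look-alike rows, an alternative chosen after seeing the data, gave a log2 fold change of FS against ES of 0.24 for Gapdh, 2.16 for Pgk1 and 1.28 for Eno1, against 0.16, 2.08 and 1.29 for the rows themselves. In the 13 genes with such rows, summing changed 0 of 78 calls over 6 comparisons and moved no log2 fold change by more than 0.0947.

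Lactate handling differed most in size. Lactate dehydrogenase A (Ldha), whose subunit favours the reduction of pyruvate to lactate, was at 142, 124, 94.8 and 174 CPM in ES and at 901 to 1324 CPM in FS, with a median of 1182. The ranges did not touch, and Ldha was 8.61-fold higher in FS (log2 fold change 3.11, SE 0.16, edgeR adjusted p 5e-11). Lactate dehydrogenase B (Ldhb), whose subunit favours the reverse reaction, was at 686, 372, 504 and 443 CPM in ES and at 41.3 to 75.0 CPM in FS, with a median of 51.6. It was 8.84-fold lower in FS, again without overlap (log2 fold change -3.14, SE 0.20, edgeR adjusted p 4.36e-10).

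Slc16a3 (ENSMUSG00000025161, chr11:120948480-120960868 on GRCm38) encodes MCT4, the lactate exporter of glycolytic cells. It was at 6.22, 6.14, 4.60 and 21.6 CPM in ES and at 269 to 534 CPM in FS, with a median of 288. This was the largest rise of the 31 genes, 33.9-fold (log2 fold change 5.08, SE 0.41, edgeR adjusted p 1.12e-08), and all FS libraries were above all ES libraries. ES replicate 4, the passage 20 library, stood above the other 3 ES libraries, and without it the fold was 58.2. Slc16a1, which encodes the broadly expressed transporter MCT1, was at 175, 125, 114 and 172 CPM in ES and at 139.6 to 229.9 CPM in FS (median 201). Its libraries overlapped, and its log2 fold change of 0.44 (standard error 0.16, edgeR adjusted p 0.0231) was called in 17 of the 23 settings tried. It was lost without any one of FS replicate 1 and ES replicates 2 and 3, with adjusted p values of 0.0553 to 0.101 by edgeR.

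**Figure D2:**
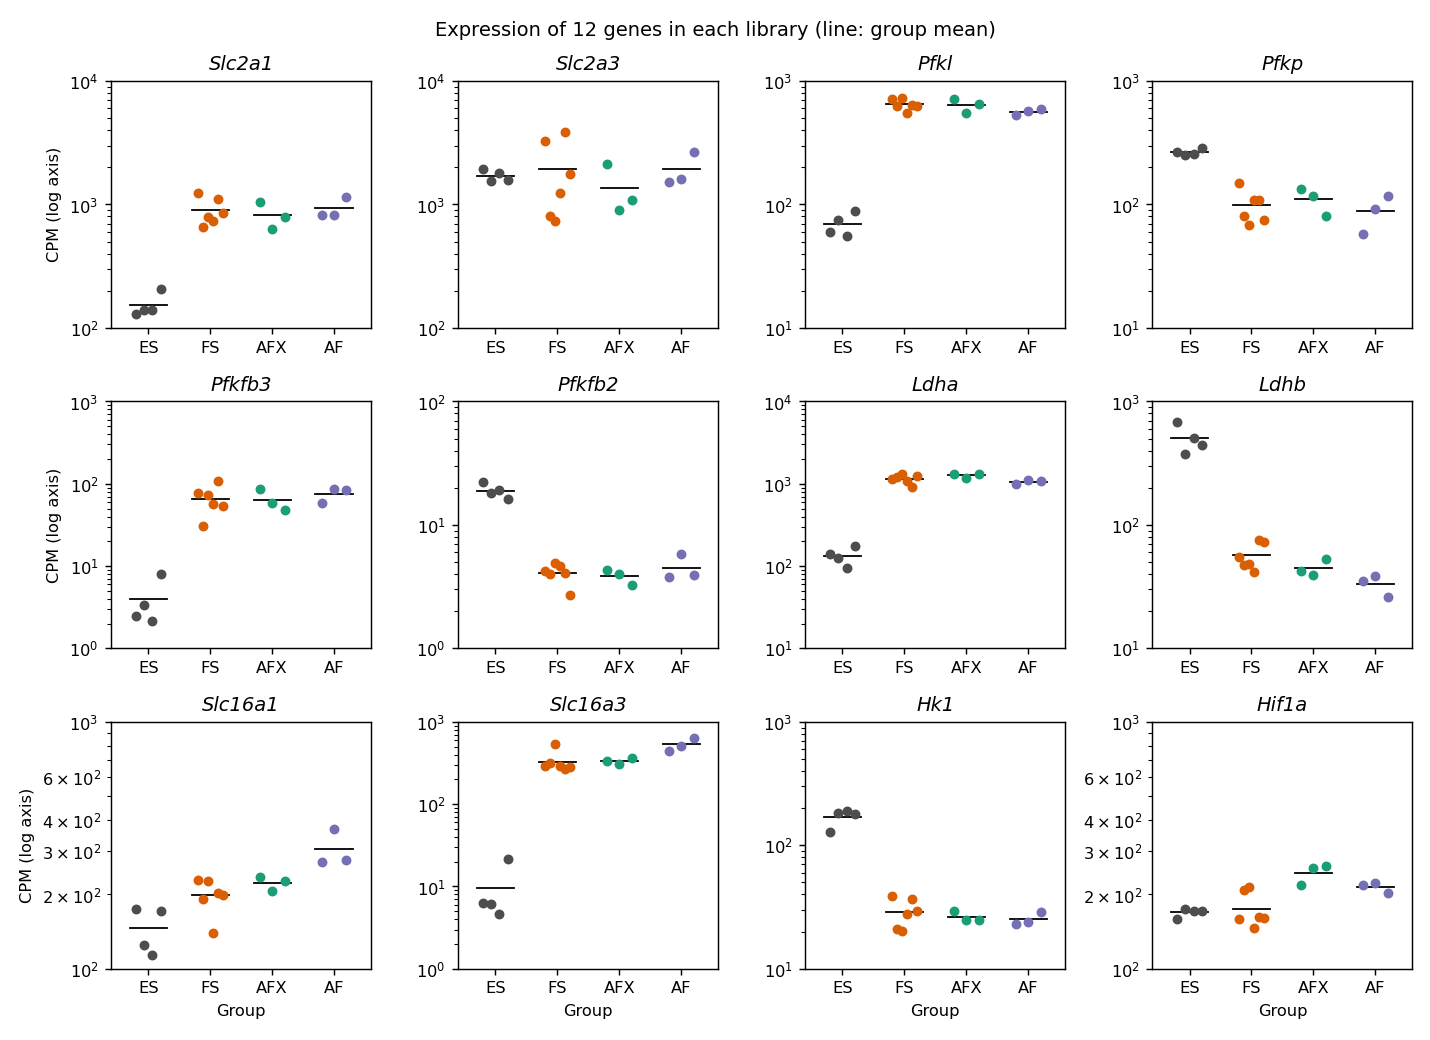
CPM per library on a log axis for genes on which the results turn, in the 4 groups, with a bar at the group mean. Ldha and Slc16a3 are higher in all FS and EpiSC libraries than in any ES library and Ldhb is lower, while Slc2a3 overlaps between the groups.

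At the entry of pyruvate into mitochondria, both pyruvate dehydrogenase subunits of the set were lower in FS and its 3 inhibitory kinases were higher. Among all tested genes 29.9% were lower and 32.9% higher. Pdha1, the catalytic alpha subunit, was at 430.5, 397, 359.9 and 343 CPM in ES and at 177 to 244 CPM in FS (median 203), without overlap (log2 fold change -0.88, SE 0.11, edgeR adjusted p 3.25e-06). Pdhb, the beta subunit, was at 115, 57.1, 51.8 and 50.6 CPM in ES and at 29.3 to 52.5 CPM in FS (median 34.0). FS replicate 3 reached into the ES range, and the log2 fold change was -0.90 (SE 0.22, edgeR adjusted p 0.00199). Its size rests partly on ES replicate 1, which brought the ES mean to 68.7 CPM against an ES median of 54.4 CPM. The call was kept without that library. Pdk1, a kinase that inactivates the complex, was at 60.9, 61.4, 52.9 and 100.3 CPM in ES and at 129 to 170.3 CPM in FS (median 135), 2.09-fold higher without overlap (edgeR adjusted p 1.48e-05). Pdk2 was low in all libraries, at 1.31 to 2.80 CPM in ES and 1.93 to 7.30 CPM in FS, and its log2 fold change of 1.15 (standard error 0.33, edgeR adjusted p 0.00593) rested on overlapping libraries. Pdk3 was at 24.7 to 36.4 CPM in ES and 32.8 to 50.7 CPM in FS, with a log2 fold change of 0.40 (standard error 0.13, edgeR adjusted p 0.0152) and overlapping libraries. Of the 23 settings tried, Pdk2 was called in 20 and Pdk3 in 19. Pdk4, the kinase outside the set, went the other way, at 1.66 to 6.70 CPM in ES and 0.228 to 2.19 CPM in FS with overlap (log2 fold change -2.22, edgeR adjusted p 0.00103). The complex's other genes Dlat (-0.02), Dld (0.06) and Pdhx (-0.31), also outside the set, were not called. These 4 were named after their values were seen.

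The set held 1 regulator, Hif1a. It was at 159.7, 174, 172 and 171 CPM in ES and at 146 to 215 CPM in FS (median 161), and no difference was detected (log2 fold change 0.05, SE 0.12, edgeR adjusted p 0.722). HIF1A is known to be controlled mainly through the stability of its protein, which is not measured by RNA sequencing. With total counts as the only scaling, Hif1a (log2 fold change 0.40), Gapdh (0.49) and Gpi1 (0.54) were called higher in FS, each against a median of 0.40 for all genes.

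**Figure D3:**
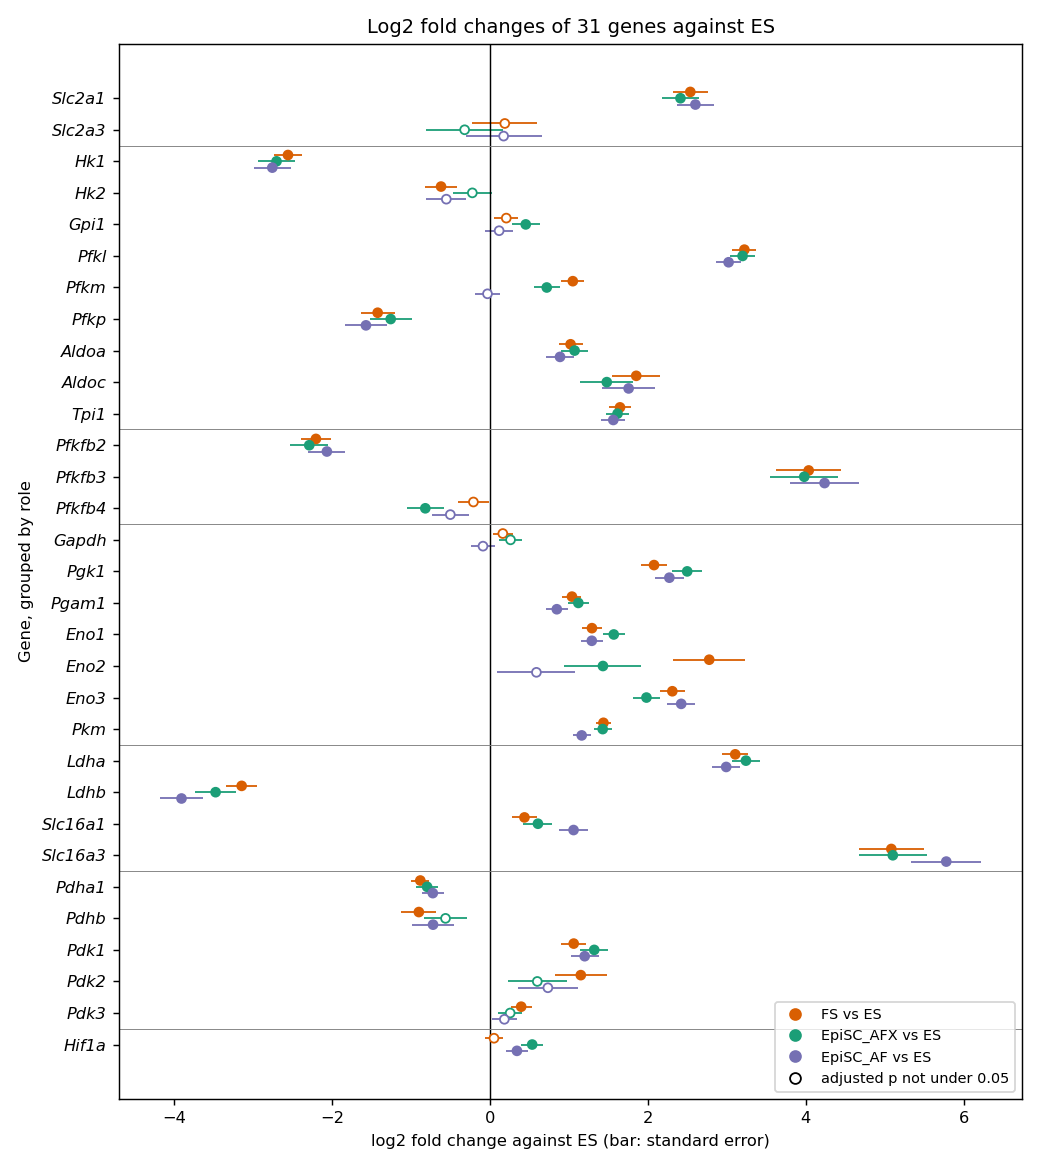
Log2 fold change with its standard error for each of the 31 genes against ES, for FS, EpiSC_AFX and EpiSC_AF, which share the 4 ES libraries. Filled points passed edgeR's test at an adjusted p under 0.05; Slc16a3 lies at 5.08 to 5.78 and Ldhb at -3.91 to -3.14.

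The EpiSC groups were compared with the same ES libraries, so the 3 comparisons against ES are not independent and are given side by side. In EpiSC_AFX 25 of the 31 genes were called, 19 higher and 6 lower than in ES, where the test called 54.7% of all genes, 28.5% higher and 26.2% lower. In EpiSC_AF 22 were called, 16 higher and 6 lower, where it called 56.7% of all genes, 29.7% higher and 27% lower. The median log2 fold change of the 31 genes was 0.72 in EpiSC_AFX and 0.73 in EpiSC_AF, against 0.01 for all genes in both.

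Slc16a3 was at 331, 309 and 362 CPM in EpiSC_AFX and at 446, 515 and 640.5 CPM in EpiSC_AF, 34.3-fold and 54.9-fold above ES. Without ES replicate 4 these folds were 58.9 and 94.2. All 6 EpiSC libraries were above all ES libraries. Ldha was at 1305, 1187 and 1296 CPM in EpiSC_AFX and 991, 1122 and 1073 CPM in EpiSC_AF, 9.46-fold and 7.95-fold above ES. Ldhb was at 42.4, 39.5 and 53.3 CPM in EpiSC_AFX and 35.2, 38.8 and 26.2 CPM in EpiSC_AF, with log2 fold changes against ES of -3.47 and -3.91. Neither gene had an EpiSC library within its ES range. Pfkl was at 717, 548 and 646 CPM in EpiSC_AFX and 526.1, 574 and 590.0 CPM in EpiSC_AF, which was 9.18-fold and 8.12-fold above ES.

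Slc2a1 was at 1041, 638 and 789 CPM in EpiSC_AFX and at 827, 827 and 1160.0 CPM in EpiSC_AF, with log2 fold changes against ES of 2.41 and 2.60. Pfkfb3 was at 85.4, 57.7 and 47.5 CPM and at 57.6, 85.3 and 84.9 CPM, 15.8-fold and 18.9-fold above ES, and without ES replicate 4 these folds were 23.7 and 28.3. Hk1 was at 29.1, 24.7 and 24.8 CPM in EpiSC_AFX and 23.2, 23.9 and 28.7 CPM in EpiSC_AF, with log2 fold changes of -2.70 and -2.76. For all 3 genes the EpiSC libraries lay in or next to the FS range and outside the ES range. The remaining genes called higher in both EpiSC groups, with log2 fold changes in EpiSC_AFX and EpiSC_AF, were Aldoa (1.07 and 0.89), Aldoc (1.48 and 1.76), Tpi1 (1.62 and 1.56), Pgk1 (2.50 and 2.27), Pgam1 (1.12 and 0.85), Eno1 (1.57 and 1.29), Eno3 (1.98 and 2.42), Pkm (1.43 and 1.16), Pdk1 (1.32 and 1.20) and Slc16a1 (0.61 and 1.06). Those called lower in both were Pfkp (-1.26 and -1.57), Pfkfb2 (-2.29 and -2.07) and Pdha1 (-0.80 and -0.72).

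Hif1a was called higher than in ES in both EpiSC groups, at 218, 256 and 262 CPM in EpiSC_AFX (log2 fold change 0.53, edgeR adjusted p 0.00344) and at 218, 222 and 203 CPM in EpiSC_AF (0.34, edgeR adjusted p 0.0442). None of these 6 libraries overlapped with ES. The EpiSC_AF call is weak: it was lost when any one of the 7 libraries compared was left out (edgeR adjusted p 0.0554 to 0.118) and without the low-count filter (0.0552). In EpiSC_AFX Pfkm was called higher than in ES, at 67.6, 86.4 and 95.3 CPM (log2 fold change 0.72, edgeR adjusted p 0.00123), whereas EpiSC_AF was at 51.0, 41.4 and 55.8 CPM, overlapping the ES range (log2 fold change -0.03, edgeR adjusted p 0.884). Eno2 was at 10.6, 8.53 and 3.52 CPM in EpiSC_AFX (log2 fold change 1.43, edgeR adjusted p 0.0197, with overlap) and at 3.99, 3.96 and 4.71 CPM in EpiSC_AF (0.59, edgeR adjusted p 0.324). The Eno2 call in EpiSC_AFX was lost without EpiSC_AFX replicate 1 (edgeR adjusted p 0.108), EpiSC_AFX replicate 2 (0.0547) or ES replicate 2 (0.0541), and with passage as a covariate (0.118). Gpi1 (log2 fold change 0.45) and Pfkfb4 (-0.82) were called in EpiSC_AFX and missed the threshold in EpiSC_AF (0.12 and -0.50), and Pdhb was called in EpiSC_AF (-0.72) and missed it in EpiSC_AFX (-0.56). These calls are also weak. That of Gpi1 was lost without any one of EpiSC_AFX replicates 1 and 2 and ES replicates 1, 3 and 4, and with passage as a covariate (edgeR adjusted p 0.0519 to 0.184). That of Pfkfb4 was lost with total counts as the only scaling (edgeR adjusted p 0.0696) and with passage as a covariate (0.0525). That of Pdhb in EpiSC_AF was lost without any one of the EpiSC_AF replicates (edgeR adjusted p 0.061 to 0.1), without ES replicate 1, where the log2 fold change was -0.35 (0.149), with total counts (0.164) and with only these groups fitted (0.0604), while in EpiSC_AFX Pdhb was called without ES replicate 4 (0.0486). Slc2a3 and Gapdh were called against ES in neither EpiSC group, and nor was Hk2, Pdk2 or Pdk3, although Hk2 was called lower in EpiSC_AF without EpiSC_AF replicate 3 (edgeR adjusted p 0.0335) or ES replicate 1 (0.02).

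FS and the EpiSC groups were compared directly next, to see where the formative lines differ from the primed ones in this pathway. Between FS and EpiSC_AFX 1 of the 31 genes was called, against 5% of all tested genes, and the median log2 fold change was 0.01. This gene was Hif1a, at 146 to 215 CPM in FS against 218 to 262 CPM in EpiSC_AFX, without overlap (log2 fold change -0.48, SE 0.13, edgeR adjusted p 0.0346). The call is weak: it was lost with total counts as the only scaling, without the low-count filter, with only these groups fitted, with line 5ar1 alone, and without any one of FS replicates 4, 5 and 6 or EpiSC_AFX replicates 2 and 3, with adjusted p values of up to 0.315. Before adjustment, 6 of the 31 genes had a p under 0.05. The 5% above is for adjusted p, and the share of all genes at the unadjusted threshold was not counted, so no excess is read from the 6.

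Between FS and EpiSC_AF 4 of the 31 genes were called, 3 higher and 1 lower in FS, against 16.6% of all genes (7.84% higher and 8.81% lower), and the median log2 fold change was 0.09. Pfkm was at 84.8 to 126 CPM in FS and at 41.4 to 55.8 CPM in EpiSC_AF, with a log2 fold change of 1.08 (standard error 0.16, edgeR adjusted p 0.000175). Eno2 was at 5.45 to 32.8 CPM in FS and 3.96 to 4.71 CPM in EpiSC_AF (log2 fold change 2.19, SE 0.49, edgeR adjusted p 0.00479). Ldhb was low in both groups but higher in FS, at 41.3 to 75.0 CPM against 26.2 to 38.8 CPM (log2 fold change 0.76, SE 0.22, edgeR adjusted p 0.0248). Slc16a1 was lower in FS, at 139.6 to 229.9 CPM against 272, 368 and 275 CPM (log2 fold change -0.62, SE 0.17, edgeR adjusted p 0.0164). In none of the 4 genes did the libraries overlap. Ldhb was not called without FS replicate 6, EpiSC_AF replicate 1 or EpiSC_AF replicate 3, and Slc16a1 lost its call when EpiSC_AF replicate 2 was left out (edgeR adjusted p 0.135). Both were also lost with line 5ar1 alone and with passage as a covariate, and Slc16a1 with total counts as the only scaling. Without FS replicate 3, Eno2 was also called between FS and EpiSC_AFX (log2 fold change 1.55, edgeR adjusted p 0.0249) and Hif1a between FS and EpiSC_AF (-0.35, edgeR adjusted p 0.0463).

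EpiSC_AFX and EpiSC_AF differed in 1 of the 31 genes, against 4.26% of all genes. Pfkm was higher in EpiSC_AFX, with a log2 fold change of 0.75 (standard error 0.18, edgeR adjusted p 0.0199) and no overlap. The call was lost without any one of EpiSC_AF replicates 1 and 2 and EpiSC_AFX replicates 2 and 3, with total counts as the only scaling and with passage as a covariate. The mean level of Pfkm in CPM, with the SD over libraries, was 104 ± 17.7 for FS (n = 6), 83.1 ± 14.1 for EpiSC_AFX (n = 3), 49.4 ± 7.36 for EpiSC_AF (n = 3) and 50.5 ± 3.09 for ES (n = 4). FS and EpiSC_AFX, neighbours in this order, were not called different, nor were ES and EpiSC_AF.

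The 2 FS lines shared a medium and differed in 0 of the 31 genes by edgeR's quasi-likelihood test, against 3.88% of all genes. The smallest adjusted p was 0.219, and 1 gene had an unadjusted p under 0.05, while the DESeq2 Wald test also called 0. The median standard error of the log2 fold changes was 0.19, and log2 differences of -0.51 to 0.46 were among those not called. Leaving out FS replicate 1 gave 4 calls, Slc2a3 (log2 fold change of 5ar1 against 5ar3 -1.60), Pdk2 (-1.19), Hk1 (-0.62) and Hif1a (0.42). Without that library 8.45% of all genes were called.

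Within FS the highest libraries were often a pair from different lines. FS replicates 1 (5ar1, passage 10) and 5 (5ar3, passage 4) were the highest 2 of the 6 libraries for 12 of the 31 genes, among them Slc2a1, Slc2a3, Aldoa, Aldoc, Pgk1, Eno2 and Pfkfb3, against 13.6% of all tested genes. They also held the highest sums over the 31 genes, 16532 and 16434 CPM, against 11262 to 13498 CPM in the other FS libraries. For Slc2a3 they were at 3281 and 3851 CPM, against 735 to 1779 CPM in the other 4. This pair was picked after its values were seen, so no test is given. In ES, replicate 4 (passage 20) was the highest library for 13 of the 31 genes, among them Slc2a1, Pfkl, Pfkfb3, Ldha, Slc16a3 and Pdk1, against 24.6% of all genes.

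Isoform use was measured next, as the log2 ratio of the counts of 2 genes of a family in each library. A ratio of counts of 2 genes reflects their lengths as well as their expression, so only its change between groups is read, by an exact two-sided permutation test over libraries with adjustment over 39 tests. Between FS and ES 10 of 13 ratios passed, each at the smallest p the design allows (0.00952, adjusted 0.0371), and in these 10 no libraries overlapped. Pairs of genes within a family share members, so these ratios are not independent of each other.

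Ldhb/Ldha changed by a log2 difference of -6.27, a 77.3-fold shift from Ldhb to Ldha. The ratio was positive in all 4 ES libraries (1.35 to 2.41) and negative in all 12 others (-5.36 to -3.59). Pfkfb3/Pfkfb2 rose by 6.37, the largest change of the 13 ratios, from between -3.15 and -1.02 in ES to between 2.93 and 4.72 in FS. Slc16a3/Slc16a1 rose by 4.90, from between -4.81 and -2.99 in ES to between 0.32 and 1.23 in FS. Pfkp/Pfkl fell by 4.71, from between 1.70 and 2.20 in ES to between -3.42 and -2.26 in FS. In these 4 pairs the sign of the log2 ratio of counts was opposite in every FS library to that in every ES library. The sign also depends on gene lengths, which differ, and shares per length are given below.

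Smaller shifts were found for Pfkfb4/Pfkfb3 (-4.37), Slc2a3/Slc2a1 (-2.62), Pfkm/Pfkl (-2.21), Hk2/Hk1 (1.96), Eno3/Eno1 (1.04) and Pdk3/Pdk1 (-0.70). The other 3 ratios did not pass: Aldoc/Aldoa (0.76, exact permutation p 0.0476, adjusted 0.109), Eno2/Eno1 (1.27, p 0.0571, adjusted 0.124) and Pdk1/Pdk2 (0.02, p 0.952). The shift of Hk2/Hk1 came with lower counts of both hexokinases, since Hk1 fell more than Hk2. Between FS and EpiSC_AFX 0 of 13 ratios passed by this exact permutation test, 2 had an unadjusted p under 0.05, and all overlapped. With 6 libraries against 3, the smallest p possible is 0.0238 in either EpiSC comparison. A lone ratio at that p could not pass the adjustment over 39 tests, so these results do not show equal isoform use. Between FS and EpiSC_AF 0 of 13 passed by the exact permutation test, where 0.0238 is the smallest p possible (adjusted 0.0714) and 4 ratios had an unadjusted p under 0.05. The smallest p was reached by Pfkm/Pfkl (0.88), Eno2/Eno1 (1.95) and Ldhb/Ldha (0.64), whose libraries did not overlap.

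**Figure D4:**
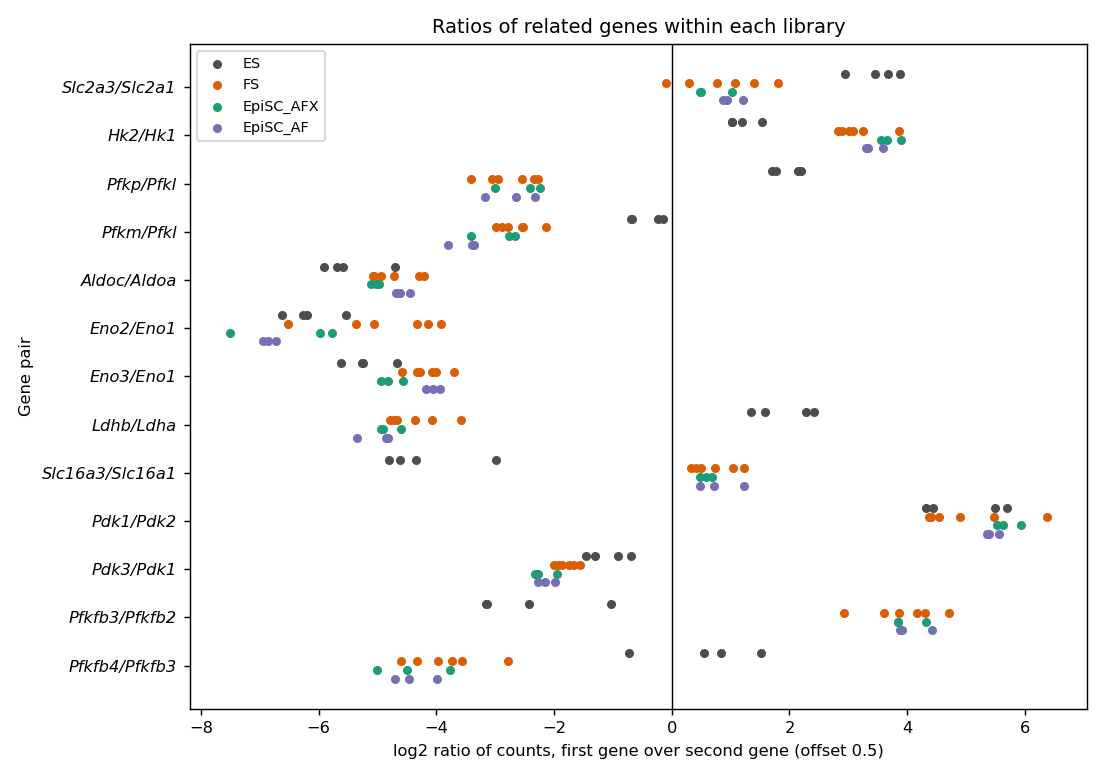
Log2 ratio of counts of isoform pairs in each of the 16 libraries, by group. Ldhb/Ldha and Pfkp/Pfkl are above 0 in ES and below 0 in all other libraries, and Slc16a3/Slc16a1 and Pfkfb3/Pfkfb2 are below 0 in ES and above 0 elsewhere. A value of 0 does not mark equal expression, because gene lengths differ.

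Levels of different genes can be compared only per length, so each family was also expressed as shares of its summed CPM per kilobase of annotated exons. Ldha made up 11.6% ± 3.62 of the lactate dehydrogenase pair in ES (SD, n = 4) and 90.4% ± 3.02 in FS (SD, n = 6). It was 93.0% in EpiSC_AFX and 93.8% in EpiSC_AF. Among phosphofructokinases ES was mixed, with Pfkp at 43.7%, Pfkm at 33.5% and Pfkl at 22.8%. In the other groups Pfkl was the main form, at 71.6% in FS, 74.0% in EpiSC_AFX and 79.8% in EpiSC_AF, and Pfkp was at 5.39% to 6.44%.

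For the lactate transporters, Slc16a3 took 4.89% ± 3.10 of the pair in ES (SD, n = 4) and 57.5% ± 6.14 in FS (SD, n = 6), with 59.2% in EpiSC_AF. Slc2a3 held 84.2% of the glucose transporter pair in ES, and Slc2a1 rose from 15.8% ± 3.87 there to 52.9% ± 11.8 in FS (SD, n = 6). Pfkfb2 was the main PFKFB form in ES at 62.4%, and Pfkfb3 in FS at 84.3%. In hexokinases the same gene led in all groups, with Hk2 at 76.5% in ES and 92.6% in FS. Aldoa held 96.4% to 97.9% of the aldolase pair and Eno1 81.9% to 90.7% of the enolases, so in these families the leading gene did not change. Shares of Eno1 are limited by the counts in look-alike rows given above.

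Genes around the pathway were read from lists for comparison. For reference, 32.9% of all tested genes were called higher and 29.9% lower between FS and ES. Of 31 other glycolytic and gluconeogenic isoforms and transporters 23 were tested. Between FS and ES 11 of them were higher (47.8%) and 7 lower (30.4%), with a median log2 fold change of 0.03. The log2 fold changes of the list ran from -6.30 to 8.73, and 8 called genes were higher and 7 lower by at least 1. Among the latter Tigar, a phosphatase that lowers fructose-2,6-bisphosphate, was 18.2 CPM in FS and 95.6 CPM in ES (log2 fold change -2.39). In the pentose phosphate pathway, which branches off at glucose-6-phosphate, 2 of 8 genes were higher (25%) and 5 lower (62.5%). The median of the 8 was -0.45, and those called included H6pd (-1.37), Pgd (-0.75) and Pgls (0.90). The mitochondrial pyruvate entry list of 10 genes had 2 higher (20%) and 4 lower (40%), with a median of -0.23.

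Mpc1, a subunit of the carrier that brings pyruvate into mitochondria, was at 6.42 to 17.6 CPM in ES and at 0.283 to 1.18 CPM in FS (median 0.695). The groups did not overlap, and Mpc1 was 14.5-fold lower in FS (log2 fold change -3.86, SE 0.34, edgeR adjusted p 2.8e-08). It was also lower in FS than in EpiSC_AFX, at 1.69 to 2.18 CPM (log2 fold change -1.52, edgeR adjusted p 0.0206), and than in EpiSC_AF, at 1.38 to 1.83 CPM (-1.23, edgeR adjusted p 0.0263). Pdp1, a phosphatase that reactivates pyruvate dehydrogenase, was 2.56-fold higher in FS than in ES, and Pdp2 was 3.03-fold lower.

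HIF targets that are not part of glycolysis were read as a further list. Of 19 tested, 16 were higher (84.2%) and 1 lower (5.26%) in FS than in ES, against 32.9% and 29.9% of all genes. The median log2 fold change was 1.92 against 0.04 for all genes. Adm, which encodes the peptide adrenomedullin, was at 0.0456 to 0.340 CPM in ES and at 2.29 to 28.5 CPM in FS (median 9.65), without overlap (log2 fold change 6.12, SE 0.81, edgeR adjusted p 4.08e-06). Car12, a carbonic anhydrase, was at 0.497 to 1.53 CPM in ES and 18.8 to 52.9 CPM in FS (log2 fold change 5.30, edgeR adjusted p 1.39e-07). Egln3, a prolyl hydroxylase that marks HIF1A for degradation, was at 0.632 to 3.15 CPM in ES and 19.3 to 74.7 CPM in FS (log2 fold change 4.68, edgeR adjusted p 2.64e-06).

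Against the same ES libraries the HIF target list had 17 higher (89.5%) and 1 lower (5.26%) in EpiSC_AFX (median 2.27). Of all genes 28.5% were higher and 26.2% lower in EpiSC_AFX. In EpiSC_AF the list had 15 higher (78.9%) and 1 lower (5.26%), with a median of 2.20, against 29.7% and 27% of all genes. Between FS and EpiSC_AFX 1 gene of the list was called, Ankrd37 (log2 fold change -0.87), against 5% of all genes. Between FS and EpiSC_AF 1 was called, P4ha2 (-1.12), against 16.6% of all genes. These 2 names, and that of Kdm3a, the gene lower in FS than in ES, were added after their values were seen. FS replicates 1 and 5, the pair picked after its values were seen, were the highest 2 FS libraries for 12 of these 19 genes, against 13.6% of all tested genes. Among 13 regulators of the HIF and Myc families, 5 were higher and 5 lower in FS than in ES. That is 38.5% each way, against 32.9% and 29.9% of all genes. Hif3a, whose products include inhibitors of HIF signalling, was at 4.92 to 6.70 CPM in ES and 23.4 to 73.9 CPM in FS (log2 fold change 3.05, edgeR adjusted p 3.71e-07). Mlxip was also higher in FS (log2 fold change 1.13), and Vhl was lower (-0.96). Of 4 splicing factors that act on Pkm, 1 was higher (25%), Hnrnpa1 (log2 fold change 0.28), and 0 were lower.

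**Figure D5:**
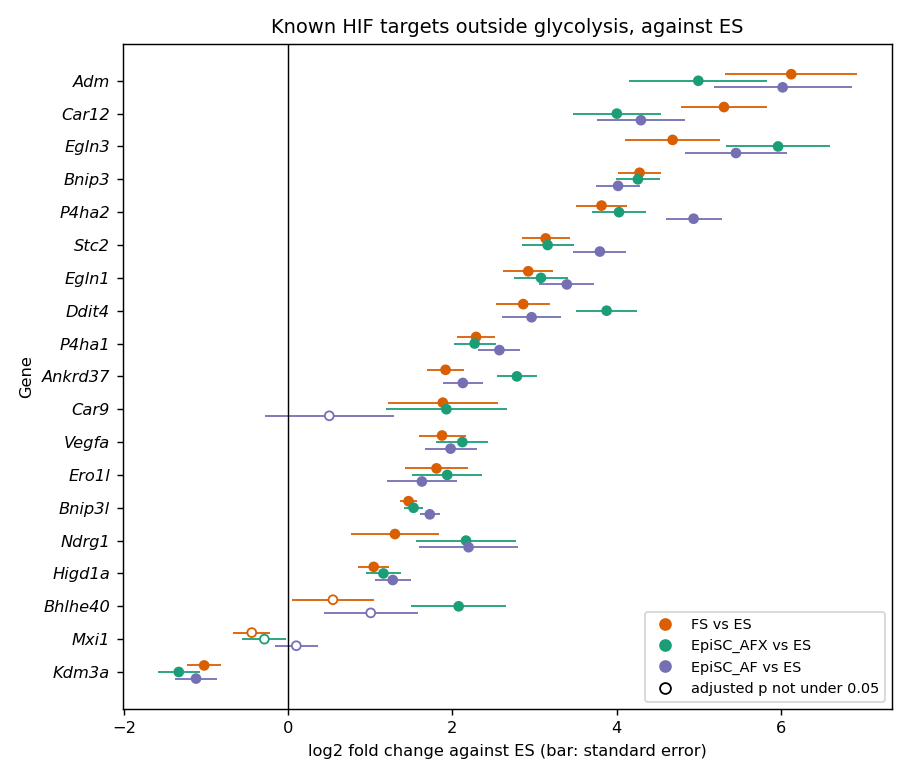
Log2 fold change against ES of the HIF targets outside glycolysis in FS, EpiSC_AFX and EpiSC_AF, which share the ES libraries, with standard errors. Most genes lie above 0 in each comparison, with Adm, Car12 and Egln3 highest in FS, and Kdm3a lies below 0.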

How the data were processed

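The authors deposited 1 table of raw read counts per gene, with gene symbols and Ensembl identifiers. Cells were lysed in Trizol, RNA was purified on PureLink columns and sequenced from a NEXTflex directional library, per the labels' protocols. The submitters' processing notes name Trim Galore, TopHat2 2.1.0, featureCounts 1.5.0 and mm10. The strand setting and annotation release are not given in the sources used here, so counts of overlapping and antisense genes are uncertain. Of the table's columns, 6 matched no sample and were not used.

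Groups are the culture conditions of the labels. Replicate numbers were given in accession order. No libraries of a line agreed within sampling noise (lowest chi-square per degree of freedom 9.13). ES replicate 1 was the farthest, at 246 to 289 from the other ES libraries, which were at 9.13 to 18.0 from each other. Pairs within the other lines were at 27.2 to 131. The TMM factor of ES replicate 1 was 0.625, against 0.923 to 0.955 in the other ES libraries. Counts were filtered with filterByExpr, scaled by TMM and fitted with edgeR 4.0.16 (robust quasi-likelihood, R 4.3.3) over all 16 libraries with a mean per group, or per line for the FS lines. A call means an adjusted p under 0.05 (Benjamini-Hochberg over all tested genes). Isoform ratios used an offset of 0.5 counts and exact two-sided permutation tests. Gene lengths, coordinates and shared 50-base stretches came from GENCODE M21 on GRCm38. The procedure was also run on simulated counts in which a small set of genes changed in FS only. The simulation held no line or passage effect, so it does not cover the confounding of line and medium in these data.

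The genes, lists and tests were chosen with earlier results of these data known. All 31 genes were eligible. Per-library values are written out for genes called between FS and ES whose log2 fold change was 1 or more in size, for genes of a ratio that passed its test or called between other groups, and for Hif1a. From each pathway list at most the 3 called genes with the largest change are named, if they reached a mean of 10 CPM in either group. Exceptions are the genes said above to have been named or added after their values were seen. Alternatives were other scalings and filters, DESeq2 1.42.0, a test against a log2 fold change of 1, other designs and leaving out each library.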

Additional observations from a re-analysis of the deposited data

Results flagged for a closer look

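In groups of 4 to 10 libraries, the most extreme library was compared with the others by Dixon's ratio, the gap to its nearest neighbour divided by the range of the group. Of 92 groups screened 8 exceeded the 95% critical value for their size, and chance gives about 1 in 20.

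ES replicate 4, the passage 20 library, stood high for Slc2a1 (207 CPM against 130.5 to 141 CPM, ratio 0.863) and for Slc16a3 (21.6 CPM against 4.60 to 6.22 CPM, ratio 0.905). ES replicate 1 stood low for Hk1 (129 CPM against 180.4 to 190.4 CPM, ratio 0.838) and high for Pdhb (115 CPM against 50.6 to 57.1 CPM, ratio 0.9). It also had the highest share of counts in mt-Rnr2 (38.1% against 17.7% to 18.97%, ratio 0.936). ES replicate 3 was low for Pkm (796 CPM against 928 to 952 CPM, ratio 0.845). FS replicate 3 was high for Slc16a3 (534 CPM against 269 to 318 CPM, ratio 0.812) and for Pfkfb4 (6.13 CPM against 3.58 to 4.40 CPM, ratio 0.678).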

How the results depend on the processing

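No paired analysis was possible because the replicate numbers follow accession order and name only the library. Between FS and ES, leaving out 1 library at a time gave 25 to 26 of the 31 genes, against 26. Of all genes 58.4% to 64.5% were then called. The ranges were 23 to 25 for EpiSC_AFX against ES, 20 to 21 for EpiSC_AF against ES, 0 to 2 for FS against EpiSC_AFX, 3 to 5 for FS against EpiSC_AF, 0 to 1 between the EpiSC groups and 0 to 4 between the FS lines, with 4 only without FS replicate 1. For EpiSC_AFX and EpiSC_AF against ES, 47.0% to 54.5% and 49.6% to 56.6% of all genes were called. In the other comparisons, in the order given, the shares were 1.98% to 6.62%, 9.42% to 18.8%, 1.83% to 4.83% and 1.57% to 8.45%. Testing against a log2 fold change of 1 gave 16 genes between FS and ES, 14 in each EpiSC group against ES, and 0 between FS and EpiSC_AFX, between FS and EpiSC_AF and between the EpiSC groups. This test called 31.3% of all genes between FS and ES, 27.3% in EpiSC_AFX and 28.4% in EpiSC_AF against ES. In the comparisons that gave 0 it called 0.852%, 3.68% and 0.55% of all genes, in the order given. For FS against EpiSC_AFX the count was 0 with total counts, without the low-count filter, with only these groups, with line 5ar1 alone and, chosen after seeing the data, without FS replicates 1 and 5. It was 3 with DESeq2 (8.83% of all genes) and 2 with line 5ar3 alone (9.67% of all genes). For FS against EpiSC_AF it was 2 with line 5ar1 alone (17.5% of all genes) and 2 with passage as a covariate (14.3% of all genes). Between the EpiSC groups it was 0 with total counts, 0 with passage as a covariate and 3 with only these groups (13.6% of all genes). With total counts, 64.7% of all calls were higher in EpiSC_AFX than in ES, against 52% with TMM, 66.3% in EpiSC_AF against 52.4%, and 72.7% between FS and EpiSC_AFX against 57.9%. The count of ratios that passed between FS and ES was 0 whenever a library was left out, because fewer splits raise the smallest possible p, and the 10 ratios that passed kept their sign. The Pdk1/Pdk2 difference, which had not passed, ran from -0.43 to 0.48 over the settings tried. With a count offset of 5 it stayed at 10. Single FS lines gave ratio differences without a test. Of 4030 single-gene values recomputed, 3908 kept their side of the threshold, 100 lost a call, 22 gained one and 0 called values reversed. Depth limits the low genes, such as Pdk2 and Pfkfb4, most.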
